A study of Mus musculus with 6 samples.

Results

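The microRNAs of 6 mouse hairpins that are known from fibroblasts, smooth muscle and other mesenchymal cells were followed in small RNA libraries of J1 embryonic stem cells. The hairpins were Mir143, Mir145a, Mir199a-1, Mir199a-2, Mir199b and Mir214, out of 1174 hairpins with a Mir symbol in GENCODE M21. Their members were distinct read sequences, called tags, of 18 to 26 bases that matched a hairpin exactly on its sense strand. Numbers of tags given below are read counts, so a sequence read several times counts each time. The counts of these tags were summed for the 5p and the 3p arm of each hairpin. Some arms are identical between hairpins, which leaves 9 distinct arms, and 8 of them had tags. Together they held 18773 tags, out of 10060751 microRNA tags in all libraries and 1253 microRNA arms with tags.

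All cells were of the J1 line, adapted to gelatin-coated plates, with no feeder cells named in the labels, and kept in medium with serum replacement and 1000 U/ml leukemia inhibitory factor. For 24 h they received 1 µM retinoic acid (RA), 1 µM BIO, 3 µM CHIR99021, 50 µg/ml vitamin C, 1 µL ddH2O or 1 µL DMSO. RA is a signal that drives stem cells to differentiate. GSK3, a kinase of the Wnt pathway, is blocked by BIO and by CHIR99021. Enzymes that demethylate DNA and histones use vitamin C. DMSO was the control of RA, BIO and CHIR99021, and ddH2O that of vitamin C. There was 1 library per group and 6 in all, so no test between treatments was possible.

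MicroRNAs are cut from a hairpin whose stem yields a 5p and a 3p strand, of which usually 1 is kept in the silencing complex. Bases 2 to 8 of that strand, the seed, choose the messenger RNAs that are repressed. MiR-143 and miR-145 come from a shared primary transcript and are known for their part in the differentiation of smooth muscle. MiR-199a and miR-214 share the noncoding transcript Dnm3os, which the mesenchymal factor Twist1 activates, and copies of miR-199 lie opposite introns of dynamin genes. All are abundant in mouse fibroblasts and scarce in stem cells, blood cells and most epithelia.

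RefSeq (GRCm38.p6) gave mature sequences for 4 of the 6 hairpins. They are shown because the identical 3p strands of miR-199 carry most of the signal of that family, and because the seeds of miR-199 and miR-214 differ. Capitals mark the seed.
miR-199a-3p: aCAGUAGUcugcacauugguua
miR-199b-3p: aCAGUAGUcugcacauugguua
miR-199a-5p: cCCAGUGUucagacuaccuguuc
miR-214-3p: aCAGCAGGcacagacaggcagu
miR-214-5p: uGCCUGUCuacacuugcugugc

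On GRCm38, Mir199a-2 lies on chromosome 1 (162217814 to 162217923, plus strand) in an exon of Dnm3os and antisense to an intron of Dnm3. Mir214 follows 5554 bases downstream (162223368 to 162223477), also in an exon of Dnm3os. Mir199b lies on chromosome 2 (32318460 to 32318569, plus strand), antisense to an intron of Dnm1. Mir199a-1 lies on chromosome 9 (21496495 to 21496564, minus strand), antisense to an intron of Dnm2. Mir143 (61649196 to 61649258) and Mir145a (61647825 to 61647894) lie on the minus strand of chromosome 18, 1371 bases apart from start to start, in no other gene of GENCODE M21. The 3p arms of the 3 miR-199 hairpins were counted as 1 arm, miR-199-3p, and the 5p arms of Mir199a-1 and Mir199a-2 as 1 arm, miR-199a-5p. Of 8317 miR-199-3p tags, 8316 matched all 3 hairpins and 1 matched Mir199a-2 alone, so the tags do not tell which hairpin they came from.

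Libraries held 18870345 to 23758363 tags, of which 3.77 to 11.4% were from microRNAs, with the lowest share in RA and the highest in DMSO. Levels are given as CPM, counts per 1000000 microRNA tags of the library, and the depth of 730648 to 2155187 microRNA tags puts 3 counts, the floor, at 1.39 to 4.11 CPM. Intervals are 95% intervals (exact Poisson for levels, Clopper-Pearson for shares, exact conditional binomial for ratios), and they cover counting error alone, as the labels name no molecular identifiers and amplified copies cannot be told from separate molecules. The stem cell list (miR-290a to miR-295, miR-302 and miR-367) summed to 154199 CPM in RA, 285035 in BIO, 318676 in CHIR99021, 259219 in vitamin C, 251547 in ddH2O and 272420 in DMSO. These are shares of the microRNA tags, not of all tags of a library. With RNA from a whole culture, a change in the number of cells of 1 type cannot be told apart from a change in RNA per cell.

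MiR-199-3p and miR-143-3p were the leading arms, and they lay at almost the same level in every library. By mean level they ranked 107 and 106 among 1253 arms. MiR-199-3p stood at 1044 CPM in RA, 683 in BIO, 662 in CHIR99021, 931 in vitamin C, 956 in ddH2O and 805 in DMSO. MiR-143-3p stood at 944 CPM in RA, 744 in BIO, 655 in CHIR99021, 937 in vitamin C, 1046 in ddH2O and 882 in DMSO. Per microRNA tag the libraries of the 2 GSK3 inhibitors were lowest for both arms, and the highest level was 1.58 times the lowest for miR-199-3p and 1.60 times for miR-143-3p. This order depended on the scale. Per 1000000 tags of all kinds, RA was lowest for both arms, with miR-199-3p at 39.4 in RA, 64.4 in BIO, 39.9 in CHIR99021 and 91.9 in DMSO, and miR-143-3p at 35.6 in RA, 70.2 in BIO, 39.4 in CHIR99021 and 100.7 in DMSO. Under TMM scaling the log2 ratio of miR-143-3p to DMSO was -0.40 in RA, -0.14 in BIO and -0.37 in CHIR99021.

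In the order of levels, miR-199-3p had overlapping intervals in RA and ddH2O, in ddH2O and vitamin C, and in BIO and CHIR99021. DMSO (767 to 843 CPM) lay apart from its neighbours, vitamin C (888 to 976) and BIO (648 to 720). For miR-143-3p the intervals of ddH2O, RA, vitamin C and DMSO overlapped from neighbour to neighbour, while BIO (708 to 782 CPM) lay below DMSO (843 to 923) and above CHIR99021 (614 to 698). The share of miR-199-3p in the tags of both arms was 52.5% in RA (49.9 to 55.1%), 47.9% in BIO (46.1 to 49.7%), 50.3% in CHIR99021 (47.98 to 52.5%), 49.8% in vitamin C (48.2 to 51.5%), 47.7% in ddH2O (46.1 to 49.4%) and 47.7% in DMSO (46.1 to 49.3%). This share does not depend on how libraries are scaled, and the interval in RA did not overlap those in BIO, ddH2O and DMSO. The 2 arms come from different chromosomes and share no sequence that was counted for both.

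**Figure D1:**
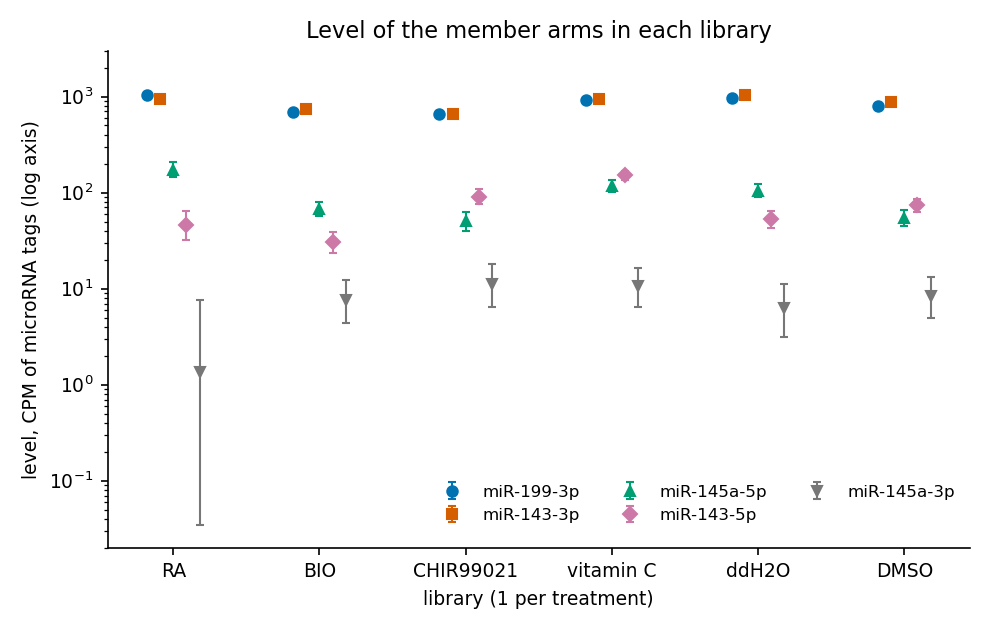
Level of 5 member arms in each of 6 libraries, as CPM of microRNA tags on a log axis. Bars are 95% exact Poisson intervals for counting error and there is 1 library per treatment. MiR-199-3p and miR-143-3p lie between 655 and 1046 CPM throughout, miR-145a-5p between 50.3 and 174 CPM and miR-143-5p between 30.5 and 151 CPM.

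MiR-145a-5p, the strand of miR-145a usually kept, was below its neighbour miR-143-3p in every library. It stood at 174 CPM in RA (144.9 to 207), 67.2 in BIO (56.6 to 79.2), 50.3 in CHIR99021 (39.4 to 63.4), 118 in vitamin C (103 to 134), 105 in ddH2O (90.5 to 122) and 54.8 in DMSO (45.3 to 65.6). Per microRNA tag, RA was highest and apart from all others, and vitamin C and ddH2O overlapped. BIO, DMSO and CHIR99021 formed the low end with overlapping intervals. Per tag of all kinds, on the scale used above, RA was not highest, at 6.56 against 10.8 in vitamin C and 9.04 in ddH2O. BIO (6.33), DMSO (6.25) and CHIR99021 (3.03) lay below RA there. MiR-143-5p, the less kept strand of miR-143, had another order, with 46.5 CPM in RA, 30.5 in BIO, 90.9 in CHIR99021, 151 in vitamin C, 52.6 in ddH2O and 74.2 in DMSO. Vitamin C was highest, with an interval of 134 to 169 CPM that overlapped no other, and each lower library overlapped its neighbour in the order.

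The other arms were at the edge of detection. MiR-145a-3p had 1 tag in RA, 16 in BIO, 16 in CHIR99021, 20 in vitamin C, 11 in ddH2O and 18 in DMSO, which is 1.37 CPM in RA (0.0347 to 7.63) and 8.35 CPM in DMSO (4.95 to 13.2). The ratio of RA to DMSO for this arm was 0.164 with an interval of 0.00393 to 1.04, so a difference was not detectable at this depth. MiR-199a-5p had 1 to 8 tags and miR-199b-5p 0 to 6 tags per library. MiR-214-3p had 2 tags in RA, 1 in BIO, 1 in vitamin C and 0 in the 3 other libraries, and miR-214-5p had 0 in all 6, below the floor of 3 counts, which is 1.39 CPM in DMSO and 4.11 CPM in RA. The upper bound of the exact Poisson interval for 0 tags was 5.05 CPM in RA and 1.71 CPM in DMSO. Mir214 thus gave 4 tags in all where the 3p arm shared by 3 miR-199 hairpins gave 8317. Mir214 and Mir199a-2 lie in the same host transcript, but 8316 of the 8317 tags matched all 3 hairpins. How many came from Mir199a-2 is therefore not known, and the 2 hairpins cannot be compared. The 5p arms made up 0.261% of miR-199 tags in RA (0.0317 to 0.941%) and 0.801% in DMSO (0.439 to 1.34%), with the other libraries between 0.239 and 0.63%.

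RA against DMSO asks what accompanies induced differentiation. MiR-145a-5p was 3.17-fold higher in RA (2.45 to 4.11), at 174 CPM in RA against 54.8 CPM in DMSO, and was called, where a call needs a ratio of 2-fold or more either way, an interval that leaves out 1 and 10 CPM in the higher library. MiR-143-3p, from the same locus, stood at 944 CPM in RA and 882 CPM in DMSO, a ratio of 1.07 (0.98 to 1.17), and miR-199-3p at 1044 CPM in RA and 805 CPM in DMSO, a ratio of 1.30 (1.19 to 1.41). MiR-143-5p had a ratio of 0.627 (0.42 to 0.912) and was not called, though it was called lower with TMM, median-of-ratios and all-tag scaling. In this comparison 40.6% of 530 arms were called, 33% higher and 7.55% lower, so 1 of 4 measured member arms called higher is near that background. The median log2 ratio was 0.24 over the 4 member arms and 0.50 over all measured arms, which puts miR-199-3p (0.38) and miR-143-3p (0.10) below the middle of all arms.

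The call of miR-145a-5p depended on the vehicle and on the scale. The ddH2O library had 105 CPM of this arm, and the ratio of RA to ddH2O was 1.65 (1.31 to 2.08), which was not called. Against ddH2O, 0 of 4 member arms were called, beside 33.1% of 531 arms, 26.9% higher and 6.21% lower. Scaled to all tags of a library, where microRNAs as a class were scarcer in RA, the ratio of RA to DMSO was 1.05 (0.809 to 1.36), and 51 arms were called higher and 286 lower. On that scale miR-199-3p had a log2 ratio of -1.22 and miR-143-3p one of -1.50, and both were called lower. Under TMM scaling, which moved every log2 ratio of this comparison by -0.50 and gave 98 arms higher and 89 lower in place of 175 and 40, it was 2.24 (1.73 to 2.91). The sign of the other leading arms flipped there, with log2 ratios of -0.12 for miR-199-3p and -0.40 for miR-143-3p. Median-of-ratios scaling gave 113 arms higher and 73 lower.

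**Figure D2:**
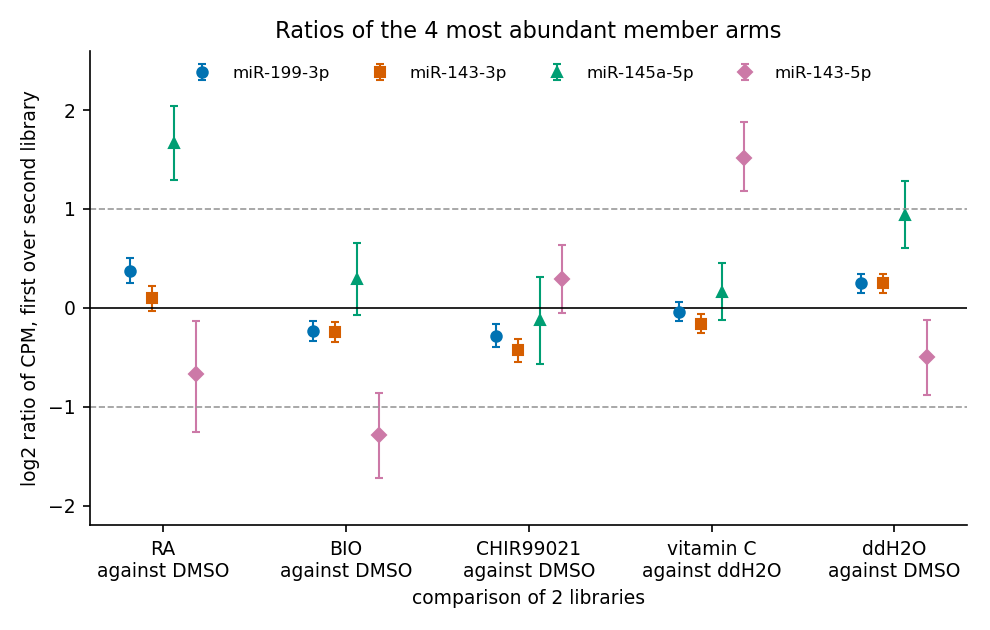
Log2 ratio of CPM for the 4 most abundant member arms in 5 comparisons of 2 libraries, first over second. Bars are 95% exact conditional binomial intervals for counting error and dashed lines mark 2-fold. MiR-145a-5p in RA (1.67) and miR-143-5p in vitamin C (1.51) lie above the upper line, and miR-143-5p in BIO (-1.28) lies below the lower one.

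Shares within the locus do not depend on scaling. MiR-145a-5p made up 15.5% of the tags of miR-145a-5p and miR-143-3p together in RA (13.1 to 18.2%), 8.28% in BIO (7.01 to 9.69%), 7.14% in CHIR99021 (5.62 to 8.9%), 11.2% in vitamin C (9.8 to 12.6%), 9.13% in ddH2O (7.91 to 10.5%) and 5.84% in DMSO (4.86 to 6.96%). RA lay above all other libraries without overlap, and ddH2O lay above DMSO without overlap although neither held an active compound. MiR-143-5p made up 4.7% of miR-143 tags in RA (3.27 to 6.5%), 3.94% in BIO (3.04 to 4.999%), 12.2% in CHIR99021 (10.3 to 14.3%), 13.9% in vitamin C (12.4 to 15.4%), 4.78% in ddH2O (3.87 to 5.84%) and 7.76% in DMSO (6.64 to 9%). CHIR99021 and vitamin C stood apart from the 4 other libraries with overlapping intervals between them.

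**Figure D3:**
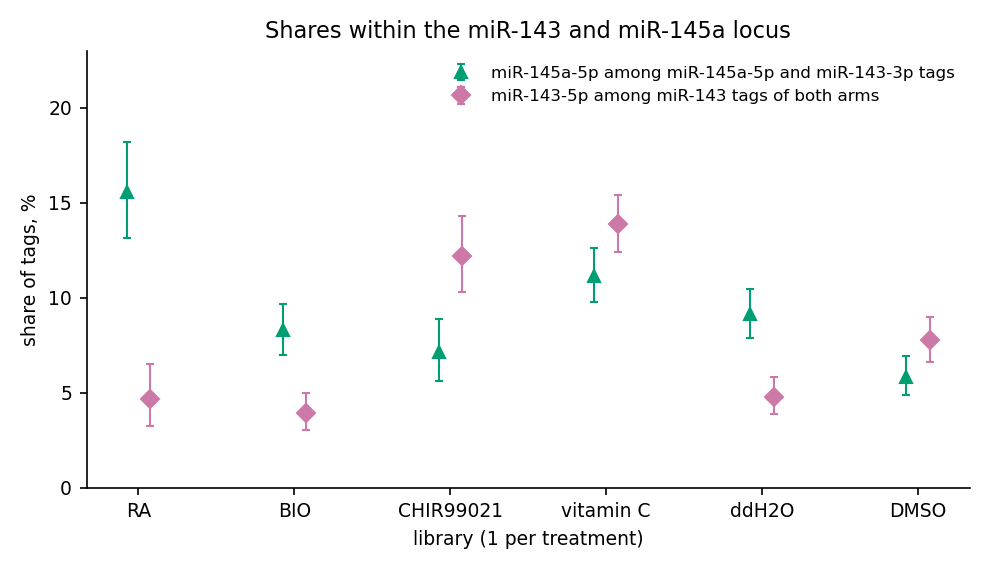
Share of miR-145a-5p among tags of miR-145a-5p and miR-143-3p, and share of miR-143-5p among miR-143 tags of both arms, in percent, in each library. Bars are 95% Clopper-Pearson intervals. The first share is highest in RA (15.5%) and the second in vitamin C (13.9%) and CHIR99021 (12.2%).

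BIO and CHIR99021 against DMSO ask what follows inhibition of GSK3, and the doses differed, at 1 and 3 µM. MiR-143-5p was 2.43-fold lower in BIO (1.81 to 3.31), at 30.5 CPM in BIO against 74.2 CPM in DMSO, and was called lower. It stood at 90.9 CPM in CHIR99021 against the same 74.2 CPM in DMSO, a ratio of 1.22 (0.964 to 1.55). The abundant arms were lower by less than 2-fold in both per microRNA tag, while with all-tag scaling the ratios in CHIR99021 were 0.391 for miR-143-3p and 0.434 for miR-199-3p, both called lower, and those in BIO were 0.697 for miR-143-3p and 0.701 for miR-199-3p, not called. MiR-143-3p had a ratio of 0.844 in BIO (0.789 to 0.903) and 0.743 in CHIR99021 (0.686 to 0.804). MiR-199-3p had a ratio of 0.849 in BIO (0.791 to 0.911) and 0.823 in CHIR99021 (0.76 to 0.891). MiR-145a-5p was at 1.23 in BIO (0.954 to 1.58) and 0.919 in CHIR99021 (0.676 to 1.24), with both intervals including 1.

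Among all arms, 7.04% of 469 were called in BIO, 1.92% higher and 5.12% lower. In CHIR99021 18.6% of 478 were called, 6.28% higher and 12.3% lower. Of the member arms, 1 of 4 measured in BIO and 0 of 5 in CHIR99021 were called. TMM scaling gave 13 arms higher and 18 lower in BIO in place of 9 and 24, and median-of-ratios scaling 16 and 16. All-tag scaling gave 5 higher and 48 lower in BIO, and 7 and 249 in CHIR99021 in place of 30 and 59. The median log2 ratio in BIO was -0.24 over the 4 measured member arms and -0.11 over all arms, and in CHIR99021 it was -0.12 over 5 member arms and -0.12 over all. Both comparisons use the same DMSO library. Against ddH2O, miR-143-5p in BIO had a log2 ratio of -0.78 and was not called, and miR-145a-5p in CHIR99021 had one of -1.06 and was called lower. Those counts of 0 of 4 arms in BIO and 1 of 5 in CHIR99021 stand beside 13.3% of 481 arms in BIO (4.16% higher, 9.15% lower) and 20.8% of 490 in CHIR99021 (6.73% higher, 14.1% lower).

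Vitamin C against ddH2O gave a difference in the minor strand of miR-143. MiR-143-5p stood at 151 CPM in vitamin C and 52.6 CPM in ddH2O, 2.87-fold higher (2.26 to 3.67), and was called. Against DMSO it was 2.03-fold higher (1.67 to 2.48), and 2 of 5 member arms were called higher there (miR-145a-5p at 2.15-fold), beside 10.4% of 481 arms (8.52% higher, 1.87% lower). The other strand, miR-143-3p, stood at 937 CPM in vitamin C and 1046 CPM in ddH2O, a ratio of 0.895 (0.838 to 0.956). MiR-199-3p had a ratio of 0.974 (0.91 to 1.04) and miR-145a-5p one of 1.12 (0.916 to 1.37). In this comparison 7.25% of 483 arms were called, 6% higher and 1.24% lower, and 1 of 5 measured member arms was called higher. The median log2 ratio was 0.16 over these 5 and -0.02 over all arms.

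MiR-143-5p differed from the other arms in the length of its tags. In all libraries together 82.6% of its tags had 18 or 19 bases, against 1.69% for miR-143-3p, 1.27% for miR-145a-5p and 0.144% for miR-199-3p. Tags of 18 or 19 bases made up 14.4% of all tags in RA, 8.01% in BIO, 15.8% in CHIR99021, 18.7% in vitamin C, 10.99% in ddH2O and 10.9% in DMSO. The level of miR-143-5p and this share were both highest in vitamin C and CHIR99021 and both lowest in BIO, while RA had the second lowest level with a share of 14.4%. The part of the share in the result was not tested. With tags of 20 to 24 bases alone, miR-143-5p was still higher in vitamin C, with 44 tags against 11 in ddH2O and a ratio of 3.74 (1.9 to 8.03), and still lower in BIO, with 13 tags against 27 in DMSO and a ratio of 0.478 (0.226 to 0.959).

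Between the vehicles, ddH2O and DMSO, 0 of 4 member arms were called, beside 7.95% of 478 arms, 5.44% higher and 2.51% lower in ddH2O. TMM scaling gave 20 arms higher and 18 lower in place of 26 and 12, and all-tag scaling 7 and 41. MiR-145a-5p came nearest, with 105 CPM for ddH2O and 54.8 CPM for DMSO, a ratio of 1.92 (1.52 to 2.44), and with untemplated 3' bases counted its ratio of 2.08 (1.68 to 2.59) was called. MiR-143-3p and miR-199-3p had the same ratio of 1.19 (1.11 to 1.27 for both), which turned to log2 ratios of -0.16 and -0.16 with all-tag scaling, and miR-143-5p one of 0.708 (0.542 to 0.921). The ratio of miR-145a-5p between these libraries without an active compound was larger than its ratio of RA to ddH2O, 1.65.

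**Figure D4:**
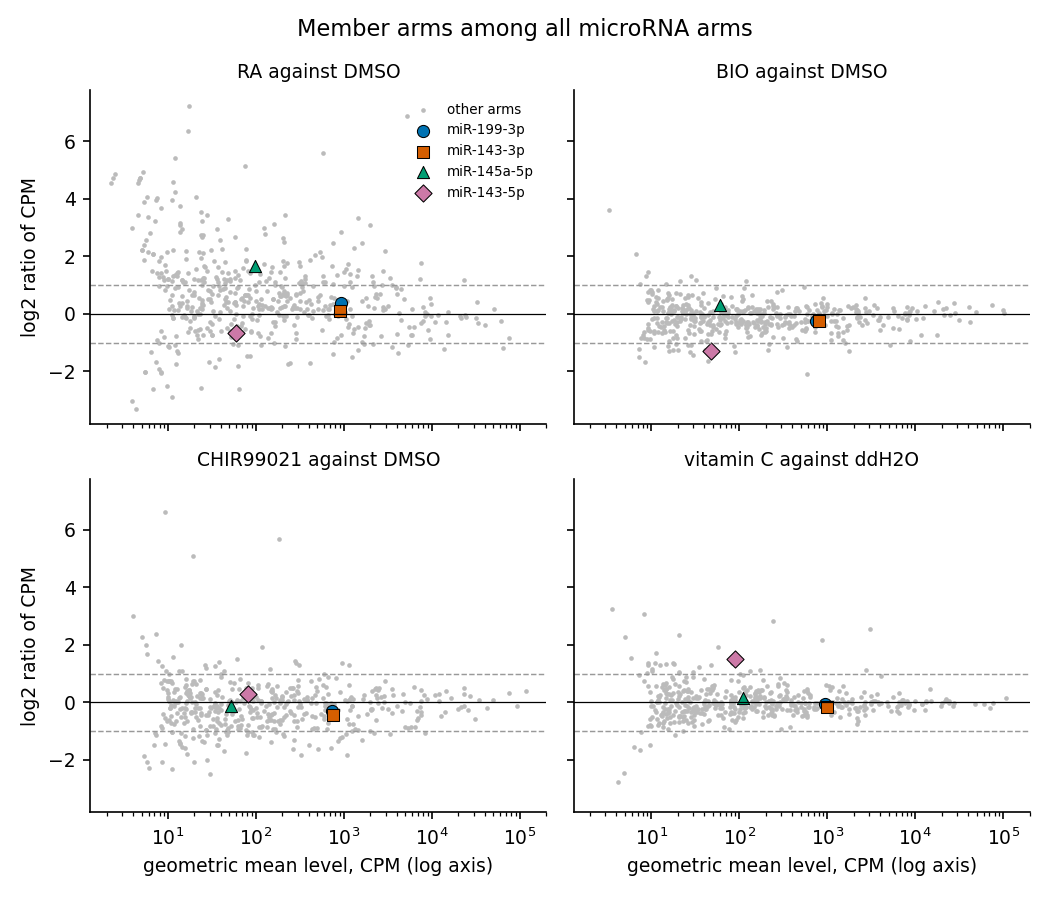
Log2 ratio of CPM against the geometric mean level in 4 comparisons, for arms that reach 10 CPM in either library and are above 0 in both. Grey points are other arms (miR-145a-3p among them where it reaches 10 CPM), coloured symbols are 4 member arms, and dashed lines mark 2-fold. MiR-199-3p and miR-143-3p lie within 2-fold in all 4 panels, while miR-145a-5p lies outside in RA (1.67) and miR-143-5p in BIO (-1.28) and vitamin C (1.51).

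The 5' end of miR-199-3p varied, which moves its seed. The commonest tags of each start are shown as the files list them, with bases 2 to 8 in capitals.
start of the RefSeq mature sequence: aCAGTAGTctgcacattggtta
1 base upstream: tACAGTAGtctgcacattggtt
1 base downstream: cAGTAGTCtgcacattggtta
They were counted 3279, 1651 and 387 times in all libraries, out of 8317 tags, and the flanking T before the RefSeq start is common to the 3 hairpins. The upstream start made up 22% of miR-199-3p tags in RA (19.1 to 25.1%), 29.2% in BIO (26.9 to 31.6%), 27.7% in CHIR99021 (24.8 to 30.6%), 26.2% in vitamin C (24.2 to 28.3%), 25.1% in ddH2O (23.04 to 27.3%) and 28.5% in DMSO (26.4 to 30.7%). RA lay lowest, without overlap with BIO and DMSO but with overlap with CHIR99021, vitamin C and ddH2O. The downstream start made up 4.33 to 6.76% in each library. In contrast, 99.4% of miR-143-3p tags, 99.5% of miR-145a-5p tags and 99.6% of miR-143-5p tags had the commonest start of their arm. In miR-145a-3p, which has few tags, 49 of 82 had it and 0 started 1 base to either side.

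**Figure D5:**
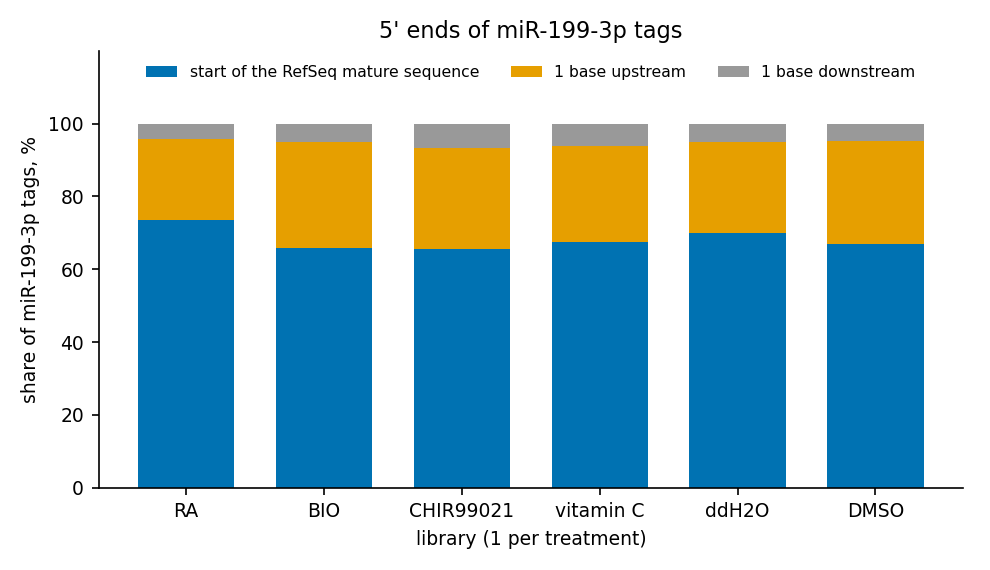
Share of miR-199-3p tags by 5' end, in percent, in each library (stacked bars). The start of the RefSeq sequence holds 65.6 to 73.7% and the start 1 base upstream 22 to 29.2%, lowest in RA.

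At the 3' end, tags with 1 to 3 bases that do not match the hairpin were counted separately. An added base that equals the next base of the hairpin counts as a match and is missed here. They made up 9.73 to 12.1% of miR-143-3p tags and 7.96 to 9.29% of miR-199-3p tags in each library, and 8.44 to 21.7% of miR-145a-5p tags. In miR-143-3p an added T (6.95% of all tags) was commoner than an added A (1.73%), and miR-199-3p had 5.05% with T and 2.56% with A. In miR-145a-5p both were close, with 41 tags with T and 54 with A of 1024. Which base is missed depends on the arm and the end of the tag, so these shares do not compare T and A evenly.

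Arms with the pattern most like that of the members were sought by the root mean square difference of log2 levels, centred on their mean over the 6 libraries, among 299 other arms of 50 CPM or more on average. For the sum of miR-143 and miR-145a the nearest were miR-425-5p (0.07), miR-497-5p (0.10), let-7i-5p (0.11), miR-195a-5p (0.11) and miR-329-5p (0.13), against a median of 0.39 over all 299. For the sum of miR-199 and miR-214 they were miR-425-5p (0.08), miR-195a-5p (0.10), miR-497-5p (0.10), miR-30e-5p (0.12) and miR-301-3p (0.13), against a median of 0.38. The 2 sums lay 0.07 from each other, while miR-143-3p lay 0.50 from miR-145a-5p and 0.76 from its own 5p arm. All of these points share the same 6 libraries and their scaling.

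Other microRNAs known to be abundant in fibroblasts (12 hairpins, among them miR-21a, miR-22, miR-31, miR-152 and the miR-29 and miR-221 groups) were followed as a list. The list was chosen with earlier results of these data known, so its counts are a description and not independent support. In RA against DMSO, 11 of their 14 measured arms were called higher, beside 33% of all arms, and 0 lower, with a median log2 ratio of 1.29 against 0.24 for the member arms and 0.50 for all arms, though all-tag scaling moved every ratio by -1.60 and so put all 3 medians below 0. The 11 called arms include both arms of miR-21a, miR-22, miR-31 and miR-221, so they are not 11 separate hairpins. In RA against ddH2O 6 of 14 were called higher, beside 26.9% of all arms, with a median of 0.81. MiR-152-3p, of a family known to target a DNA methyltransferase, stood at 3831 CPM in RA and 689 CPM in DMSO, 5.56-fold higher (5.22 to 5.92), and at 1676 CPM in ddH2O was 2.43-fold higher than in DMSO. MiR-222-3p, known to repress the cell cycle inhibitor Cdkn1b, stood at 1073 CPM in RA and 518 CPM in DMSO, 2.07-fold higher (1.89 to 2.27). MiR-21a-5p, the most abundant arm of the list, stood at 11326 CPM in RA and 4877 CPM in DMSO, 2.32-fold higher (2.26 to 2.39). Against ddH2O, with 7346 CPM of miR-21a-5p and 497 CPM of miR-222-3p, only miR-222-3p of these 2 arms was called. TMM scaling moved every log2 ratio of RA to DMSO by -0.50. This puts miR-21a-5p (1.22 before) and miR-222-3p (1.05 before) under 2-fold. MiR-29a-3p, at 2945 CPM in RA and 2670 CPM in DMSO, had a ratio of 1.10 (1.05 to 1.16) and was not called. In BIO against DMSO 1 of 11 was called lower, beside 5.12% of all arms, and in CHIR99021 0 of 11 were called, beside 18.6% in either direction. Against ddH2O 3 of 12 were called lower in BIO, beside 9.15%, and 2 of 12 in CHIR99021, beside 14.1%. In vitamin C against ddH2O 1 of 12 was called higher, beside 6%. In ddH2O against DMSO 2 of 12 were called higher, beside 5.44%, with a median of 0.57 against 0.25 for the member arms.

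Per microRNA tag, the summed level of that list was 22179 CPM in RA, 8448 in BIO, 10238 in CHIR99021, 12162 in vitamin C, 14356 in ddH2O and 9812 in DMSO, highest in RA and second in ddH2O. MicroRNA tags were 3.77% of all tags in RA, 8.59% in ddH2O and 11.4% in DMSO. This order therefore does not hold per tag of all kinds. The sum of miR-199 and miR-214 was 1049.7 CPM in RA, 686 in BIO, 666 in CHIR99021, 937 in vitamin C, 958 in ddH2O and 811 in DMSO. The sum of miR-143 and miR-145a was 1166 CPM in RA, 849.6 in BIO, 808 in CHIR99021, 1216 in vitamin C, 1210 in ddH2O and 1019 in DMSO. Striated muscle microRNAs, a list of 9 hairpins led by miR-1a-3p, summed to 6580 CPM in RA, 1441 in BIO, 1068 in CHIR99021, 1980 in vitamin C, 3358 in ddH2O and 1601 in DMSO. MiR-1a-3p alone held 6247 CPM in RA, so the sum mostly follows this arm. Per microRNA tag, miR-206-3p and miR-133a-3p were also highest in RA, at 53.4 and 10.9 CPM. The level of miR-133a-3p lay just above the minimum of 10 CPM, and its ratio of RA to DMSO of 4.72 had a wide interval (1.36 to 18.3). Per tag of all kinds, RA was not highest for these arms or for the muscle sum. MiR-499-5p had another order, with 510 CPM in ddH2O, 480 in CHIR99021, 263 in RA and 194 in DMSO. The blood cell list summed to 197 to 346 CPM and miR-126a, of endothelium, to 20.97 to 33.1 CPM. Liver miR-122 stood at 22.4 to 54.7 CPM, except in CHIR99021, where both arms summed to 1324 CPM. The part of these cell types in the levels of the members was not tested.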

How the data were processed

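The deposited files give, for each library, distinct read sequences with raw counts, and column 2 was used as the count of a tag; that the counts are whole, each sequence is listed once and its stated length is right was checked on the values. The length in bases is another deposited column. The submitters' processing notes name the mm9 build; aligner, trimming and filters are not given in the sources used here, and the labels say that raw reads of the BIO library no longer exist. TRIzol was used to isolate RNA and an Illumina TruSeq RNA kit to prepare libraries, per the labels' protocols.

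Tags of 18 to 26 bases were matched exactly to 1174 hairpins of GENCODE M21 (GRCm38). A tag was assigned to the arm whose RefSeq mature sequence covered over 50% of it, or by hairpin side where RefSeq gave none (miR-143, miR-145a, miR-199b-5p). Arms with the same commonest tag were merged, and tags of several arms split evenly. Tags that also match rRNA, mitochondrial, snoRNA, scaRNA, snRNA or Gm42418 transcripts were left out. Log2 ratios given as numbers used a pseudocount of 0.5 counts, and plotted ones used none. All 9 member arms, the 5 arms of nearest pattern for each sum, and up to 4 of the most abundant arms of each list could be named. Alternatives were TMM (edgeR 4.0.16), median-of-ratios (DESeq2 1.42.0) and all-tag scaling, other tag lengths, starts, 3' ends, filters and vehicles. Counting and calls were tested on simulated data that held counting error alone and used the same arm assignment. Spread between libraries and wrong assignment were thus not covered. Members and lists were chosen with earlier results of these data known. Shares between 2 microRNAs of a locus were added after seeing the data. The share of miR-199-3p in the tags of miR-199-3p and miR-143-3p was not among the planned shares either. Scripts used Python 3.11.15, scipy 1.17.1 and R 4.3.3.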

Additional observations from a re-analysis of the deposited data

How the results depend on the processing

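No paired analysis was possible because each group has 1 library. In the following, values are log2 ratios of the sums of miR-143 with miR-145a and of miR-199 with miR-214, in that order. None of these 10 ratios was called, and under all-tag scaling RA and CHIR99021 passed 2-fold downwards. For RA against DMSO (0.19 and 0.37) they were -0.31 and -0.13 with TMM, -0.18 and -0.0012 with median-of-ratios, -1.40 and -1.23 with all-tag scaling, and -0.053 and 0.13 with ddH2O as control. For BIO against DMSO (-0.26 and -0.24) they were -0.15 and -0.13, -0.14 and -0.12, -0.54 and -0.52, and -0.51 and -0.48 under the same 4 alternatives. For CHIR99021 against DMSO (-0.34 and -0.28) all-tag scaling gave -1.26 and -1.21, ddH2O as control -0.58 and -0.52, and median-of-ratios -0.23 for the first sum. For vitamin C against ddH2O (0.01 and -0.03) all-tag scaling gave 0.11 and 0.067, DMSO as control 0.25 and 0.21, and tags of 20 to 24 bases -0.10 for the first. For ddH2O against DMSO (0.25 and 0.24) TMM gave 0.13 and 0.13, median-of-ratios 0.15 and 0.14, and all-tag scaling -0.16 and -0.17.

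Member arms called numbered 1 in RA, and 2 with TMM, 2 with median-of-ratios, 3 with all-tag scaling and 0 with ddH2O as control. They numbered 1 in BIO (0 with ddH2O), 0 in CHIR99021 (3 with all-tag scaling, 1 with ddH2O), 1 in vitamin C (2 with DMSO) and 0 in ddH2O against DMSO (1 with untemplated ends). All arms called numbered 215 in RA (337 with all-tag scaling), 33 in BIO (53 with all-tag scaling, 64 with ddH2O), 89 in CHIR99021 (256 with all-tag scaling), 35 in vitamin C (21 at a minimum of 20 CPM) and 38 in ddH2O against DMSO (25 at that minimum). All-tag scaling moved every log2 ratio by -1.60 in RA, -0.28 in BIO, -0.92 in CHIR99021, 0.10 in vitamin C and -0.41 in ddH2O. The causes were not tested. MiR-143-5p kept its call in vitamin C in all 9 alternatives tried, and in BIO in all but ddH2O as control. Fewer microRNA tags in RA limit ratios of arms under 10 CPM.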
